A study of Mus musculus with 18 samples.

Results

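The 9 libraries numbered replicate 2 were set against the 9 libraries numbered replicate 1, out of 18 libraries in all. A library belonged to a series by the ending of its column name, and the libraries were paired by harvest hour. Every library came from NIH3T3 cells, an immortalized mouse embryonic fibroblast line, kept for 2 h in 100 nM dexamethasone, a synthetic agonist of the glucocorticoid receptor. The medium was then changed, which set 0 h, and RNA was taken every 4 h from 0 h to 32 h, once per series and hour. Line, agent and hours were thus the same in both series, and only the replicate number differed. The labels do not say whether the numbers stand for separate cultures, days or passages, so the p-values measure how steady a difference was over 9 harvests of 1 series against 1 series. They do not measure the spread between independent series.

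Fibroblasts build and remodel the extracellular matrix. They secrete collagens, the proteoglycans that bind collagen fibrils, and the metalloproteinases that cut both, and they grip the matrix through integrins tied to contractile actin bundles. The balance between these genes and those for growth and protein synthesis shifts with crowding, serum and tension. A dexamethasone pulse also sets the circadian clocks of such cells to a shared phase.

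Replicate 2 libraries were shallower, with 25.4 to 32.0 M reads against 31.9 to 38.9 M, and were so at 9 of 9 hours (means 29.0 ± 2.31 and 34.6 ± 1.97 M, SD; exact sign-flip permutation test, 2-sided, p = 0.00391, the smallest 9 pairs can give). A read was found for 14978 ± 97.4 genes in replicate 2 and 15265 ± 52.4 in replicate 1. Depth and series therefore cannot be told apart by design. With every library thinned to the smallest, 4478 genes were called, and 4300 of them were among the 4700 called at full depth (described next). Each value is a read count per gene divided by 1 factor per library, here called normalized reads. Differences are replicate 2 minus replicate 1 on the log2(value + 1) scale, with the standard error of the fit, and folds are on the same scale, which understates low genes.

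The series differed by many small offsets and a few large ones. In such bulk RNA, fewer cells of a type and less RNA per cell cannot be told apart. Of the 12393 genes tested, whose mean reached 10 normalized reads, 2476 were higher in replicate 2 (20.0%) and 2224 were lower (17.9%; limma, Benjamini-Hochberg adjusted p under 0.05). Most of these offsets were small: 3827 of the 4700 were under 1.2-fold, and the median size was 0.15 on the log2 scale against 0.079 over all tested genes. The offset kept 1 sign at all 9 hours in 2104 called genes. With a fitted difference of 1.5-fold or more and 1 sign at all 9 hours, called steady here, there were 48 higher genes (0.387%) and 32 lower genes (0.258%), and at 2-fold or more 12 and 2. Over the tested genes the replicate number took a median of 6.03% of the variance and the hour 76.3%, yet in 733 genes the replicate share was the larger. These are raw shares of the sum of squares, not scaled for the number of levels. With 9 hours against 2 replicate numbers, they favour the hour even for a gene with neither difference. Just inside the 1.5-fold threshold lay Mmp3 at -0.59 and Acsbg1 at -0.60, and just outside lay Clca6 at -0.58 and Neat1 at -0.58.

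Leaving aside steady genes whose mean was under 100 normalized reads, the insulin-like growth factor Igf2 and the matrix gene Postn had the largest differences on the higher side. Igf2, a fetal growth factor that acts through the IGF1 receptor, spanned 263 to 507 normalized reads in replicate 1 (median 363) and 938 to 1631 normalized reads in replicate 2 (median 1166). The series did not overlap, and Igf2 was 3.18-fold higher in replicate 2 (log2 difference 1.67 ± 0.06; limma adjusted p = 8.42e-14). Periostin (Postn), a matricellular protein of collagen-rich tissue, spanned 230.5 to 970.0 normalized reads in replicate 1 (median 321) and 816 to 2017 normalized reads in replicate 2 (median 1247). It declined over the course in both series, so the ranges overlapped, but replicate 2 was above at 9 of 9 hours, by 1.06 at 0 h and 1.99 at 24 h on the log2 scale (fit 1.60 ± 0.08; adjusted p = 2.28e-11). Of the IGF axis, 4 of 12 tested members were higher (33.3%) and 2 lower (16.7%), where 20.0% and 17.9% of all tested genes were. Igfbp4, a secreted binding protein that holds IGFs, was higher by 0.63 ± 0.04 and Pappa, the protease that cuts it, by 0.35 ± 0.04. Igf2bp1, an RNA-binding protein named for Igf2 mRNA, was lower, at -0.20.

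Small leucine-rich proteoglycans coat collagen fibrils and set their spacing and width. Of 10 listed, 7 were tested, 5 were higher in replicate 2 and none was lower, with a median of 0.54 against -0.00077 over all tested genes. The higher share was 71.4%, against 20.0% of all tested genes. Asporin (Aspn) spanned 25.5 to 198 normalized reads in replicate 1 (median 43.00) and 61.4 to 579 normalized reads in replicate 2 (median 131), each highest at 0 h. Its log2 difference was 1.54 ± 0.09 (adjusted p = 2.16e-10), and replicate 2 was above at 9 of 9 hours although the ranges overlapped. Prelp, which anchors basement membrane to collagen, spanned 196 to 648 normalized reads in replicate 1 (median 273) and 410.4 to 1219 normalized reads in replicate 2 (median 707), a difference of 1.27 ± 0.06 (adjusted p = 1.31e-11). Fibromodulin (Fmod) differed by 0.93 ± 0.14 and osteoglycin (Ogn) by 0.54 ± 0.04, both higher at 9 of 9 hours. Biglycan (Bgn), the member with the most reads, differed by only 0.11 ± 0.03, while decorin (Dcn) at -0.11 and Omd at -0.07 did not pass the test.

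**Figure D1:**
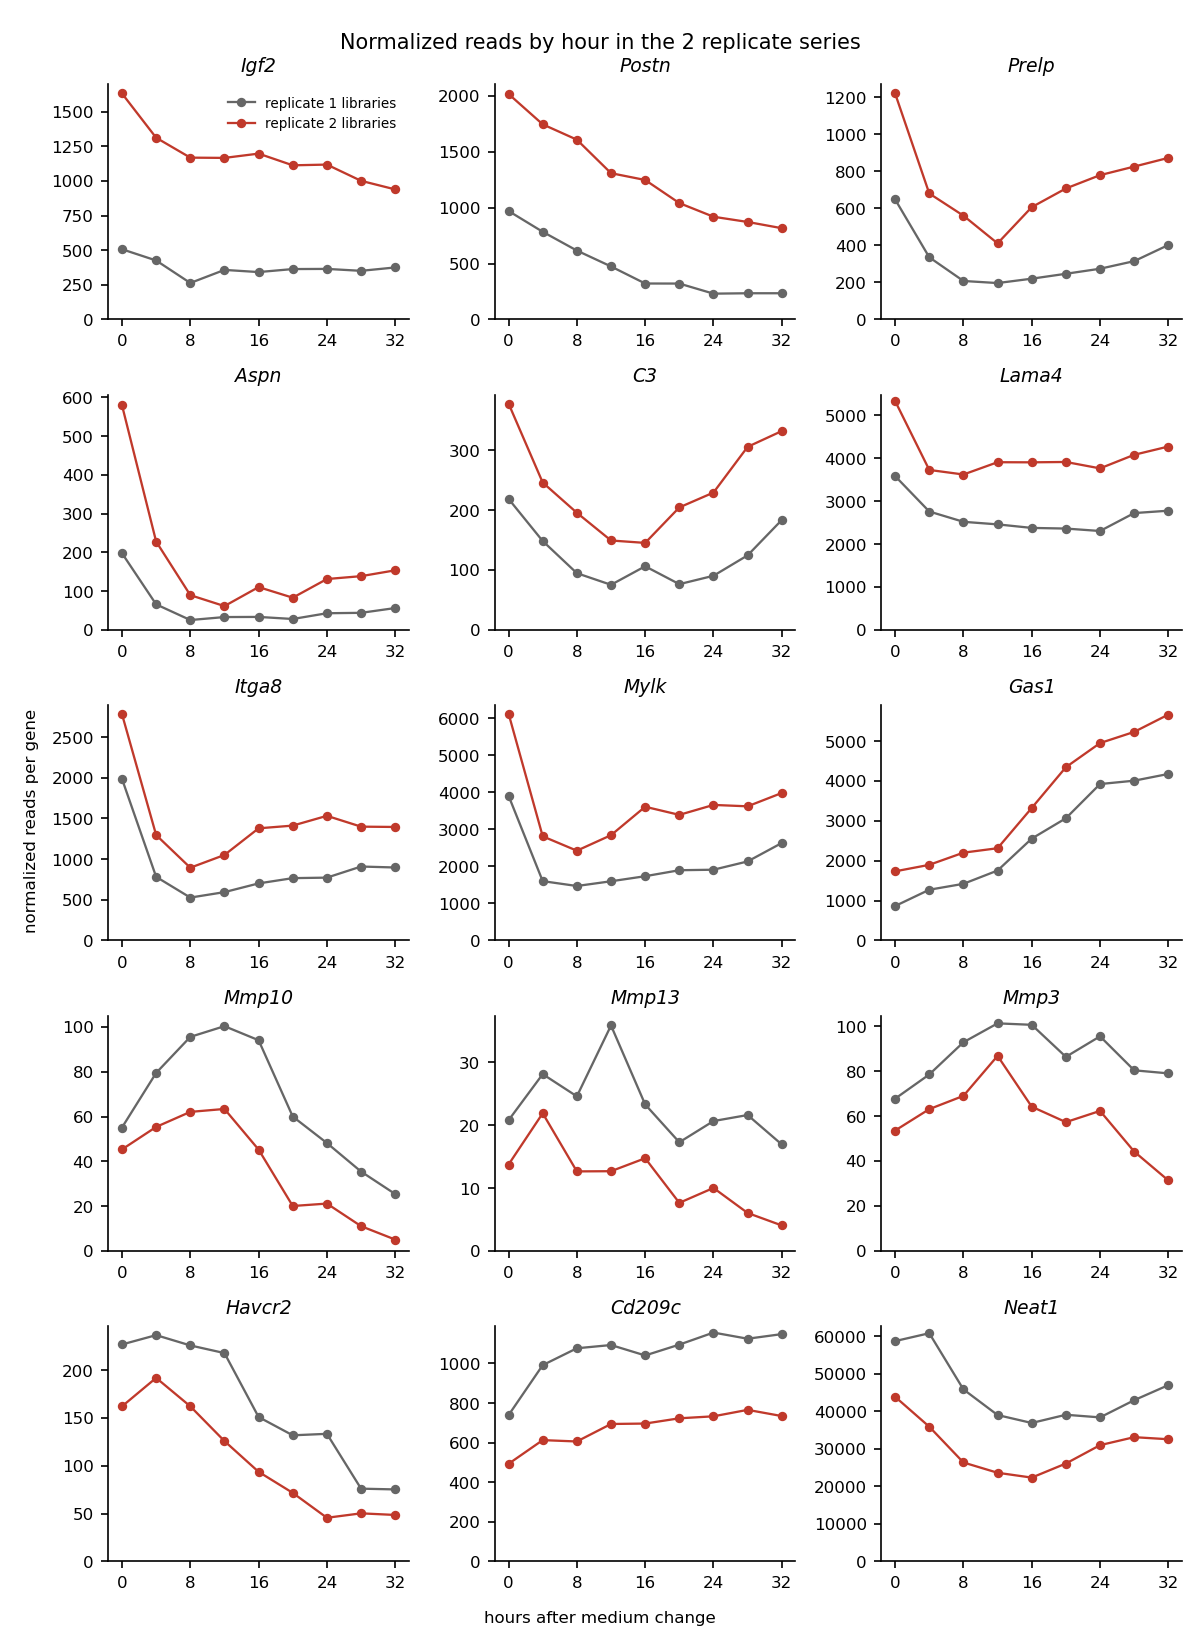
Normalized reads (vertical axes, linear from 0) against hours after the medium change for 15 genes, 1 point per library, grey for replicate 1 and red for replicate 2. The red line lies above the grey at all 9 hours for Igf2, Postn, Prelp, Aspn, C3, Lama4, Itga8, Mylk and Gas1, and below it for Mmp10, Mmp13, Mmp3, Havcr2, Cd209c and Neat1.

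Other matrix genes were split. Of all tested genes 20.0% were higher and 17.9% lower. The collagens gave 7 higher and 5 lower of 28 tested (25% and 17.9%, median 0.022), or 12 and 4 after the adjustment for GC content and length described with the noncoding genes. Higher were Col12a1, a fibril-associated collagen (0.44 ± 0.03), the microfibrillar pair Col6a1 (0.29 ± 0.02) and Col6a2 (0.26 ± 0.02), and the fibrillar Col3a1 (0.27 ± 0.03). Col1a1, the main chain of type I collagen, averaged 256832 ± 29910.1 and 246192 ± 27255 normalized reads (SD, n = 9 hours) and did not pass (-0.06, adjusted p = 0.189). Matricellular and fibril glycoproteins gave 9 higher and 4 lower of 22 (40.9% and 18.2%), or 14 and 4 after that adjustment. Among the lower ones were the basement membrane linker Nid1 (-0.23) and tenascin X, Tnxb (-0.37). Lox, the enzyme that crosslinks collagen, was higher by 0.30 ± 0.03. The laminin chain Lama4 spanned 2303 to 3582 normalized reads in replicate 1 (median 2517) and 3618 to 5329.9 normalized reads in replicate 2 (median 3905), with no overlap, and differed by 0.62 ± 0.03. Lama4 was chosen for mention after its values were seen.

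Integrin subunits, the receptors for this matrix, moved both ways: 5 of 16 were higher and 6 lower. Those shares were 31.25% and 37.5%, against 20.0% and 17.9% of all tested genes. Of the alpha chains that pair with beta 1 to bind collagen or nephronectin, Itga1 was higher by 0.79 ± 0.05, Itga8 by 0.77 ± 0.04 and Itga11 by 0.65 ± 0.04, each at 9 of 9 hours, while the collagen-binding Itga2 was too low to be tested. Itga8 spanned 527 to 1987 normalized reads in replicate 1 (median 772) and 894 to 2783 normalized reads in replicate 2 (median 1396), with overlapping ranges because both series started high at 0 h. The laminin-binding chain Itga3 spanned 3882 to 4459.5 normalized reads in replicate 1 (median 4117) and 3129.6 to 3583 normalized reads in replicate 2 (median 3364). It was lower at every hour with no overlap, by -0.30 ± 0.02 (adjusted p = 8.46e-09). Also lower at every hour were the beta chains Itgb7 (-0.50 ± 0.04) and Itgb3 (-0.29 ± 0.03), the laminin-binding Itga6 (-0.24 ± 0.02) and Itgav (-0.18 ± 0.02), which binds vitronectin and fibronectin.

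Contractile and myofibroblast genes gave 12 higher and 1 lower of 19 tested (median 0.19), or 63.2% and 5.26%, against 20.0% and 17.9% of all tested genes. Mylk, the kinase that activates non-muscle and smooth muscle myosin, spanned 1469.7 to 3907 normalized reads in replicate 1 (median 1896) and 2423 to 6125 normalized reads in replicate 2 (median 3609.8). It was 1.74-fold higher in replicate 2, at 9 of 9 hours (log2 difference 0.80 ± 0.04; adjusted p = 9.40e-12). Lmod1, an actin filament nucleator, differed by 0.57 ± 0.06, the actin-bundling LIM protein Csrp1 by 0.37 ± 0.03 and the myosin light chain Myl9 by 0.34 ± 0.03. The smooth muscle actin Acta2 differed less, at 0.19 ± 0.04, was higher at 8 of 9 hours and did not pass after quantile normalization. Of the cytoskeletal targets of SRF and MRTF, 9 of 20 were higher (45%) and none lower, among them Tpm4 (0.24) and the actin-severing Dstn (0.27). YAP and TAZ targets gave 3 higher and 7 lower of 18 (16.7% and 38.9%), with Ctgf at -0.16.

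Metalloproteinases moved both ways. Of 13 tested genes for matrix metalloproteinases and their TIMP inhibitors, 4 were higher and 6 lower, and 3 of the lower ones were among the 32 steadily lower genes. The higher and lower shares were 30.8% and 46.2%, against 20.0% and 17.9% of all tested genes. Summed over the list, replicate 2 had more reads at 9 of 9 hours, and its most abundant members, Timp2, Timp3 and Mmp2, were each higher. Stromelysin 2 (Mmp10) spanned 25.4 to 100.3 normalized reads in replicate 1 (median 59.98) and 5.06 to 63.4 normalized reads in replicate 2 (median 45.2). It was 2.08-fold lower in replicate 2 (log2 difference -1.06 ± 0.15; adjusted p = 3.01e-05), at 9 of 9 hours. On the log2 scale the gap was widest at 32 h, where the values were 25.4 and 5.06. Collagenase 3 (Mmp13) spanned 16.9 to 35.8 normalized reads in replicate 1 (median 21.6) and 4.05 to 21.9 normalized reads in replicate 2 (median 12.6), a difference of -1.05 ± 0.17. Stromelysin 1 (Mmp3) spanned 67.7 to 101 normalized reads in replicate 1 (median 86.3) and 31.4 to 86.8 normalized reads in replicate 2 (median 62.3), a difference of -0.59 ± 0.10. These 3 were low in both series, and Mmp13 and Mmp3 were chosen for mention after their values were seen. Also lower were Mmp23 (-0.52 ± 0.17), Mmp11 (-0.16 ± 0.04) and the inhibitor Timp1 (-0.12 ± 0.04), each at 7 of 9 hours. The Timp1 call was lost in 8 of 24 alternative settings and that of Mmp23 in 5 of 23. Mmp9 (-0.06), the membrane-bound Mmp14 (-0.04) and Mmp16 (0.07) did not pass. Mmp19 was higher by 0.14 ± 0.02 at 9 of 9 hours. Gelatinase A (Mmp2) was higher by 0.15 ± 0.02, as were its inhibitor Timp2 (0.19 ± 0.02) and the matrix-bound Timp3 (0.16 ± 0.02).

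The promoters of the 3 steadily lower metalloproteinases are printed because they share a stretch that the rule did not use. Each run is the 250 bases before the RefSeq start site (GRCm38.p6), 5′ to 3′ on the plus strand, with the letters of the AP-1 motif TGANTCA in capitals. Mmp3 lies at chr9:7445572-7445821, Mmp10 at chr9:7502092-7502341 and Mmp13 at chr9:7272264-7272513.
Mmp3: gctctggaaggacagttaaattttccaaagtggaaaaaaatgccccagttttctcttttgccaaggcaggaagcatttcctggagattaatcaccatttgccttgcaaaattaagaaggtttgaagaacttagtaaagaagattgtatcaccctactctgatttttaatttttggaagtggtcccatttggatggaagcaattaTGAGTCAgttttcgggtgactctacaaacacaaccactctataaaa
Mmp10: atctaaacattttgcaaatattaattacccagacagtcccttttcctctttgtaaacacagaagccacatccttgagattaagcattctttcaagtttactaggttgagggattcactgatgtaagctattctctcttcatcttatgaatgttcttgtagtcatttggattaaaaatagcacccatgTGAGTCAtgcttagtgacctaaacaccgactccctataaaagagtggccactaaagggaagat
Mmp13: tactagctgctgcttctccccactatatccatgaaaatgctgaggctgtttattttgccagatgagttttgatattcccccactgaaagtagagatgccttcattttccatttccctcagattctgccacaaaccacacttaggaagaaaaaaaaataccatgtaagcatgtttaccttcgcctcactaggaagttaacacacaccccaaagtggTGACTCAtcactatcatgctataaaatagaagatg
The match began 46, 63 and 35 bases before the start site. AP-1, a dimer of Fos and Jun proteins, is a long-known regulator of these genes. Both strands of the 300-base window from 250 before to 50 after each start were searched for the letters of AP-1, 1 of 10 motifs looked for, described because of its counts. They can lie within a match of the NRF2 element core TGACNNNGC, also searched. RefSeq promoters were matched for 9739 of the 12393 tested genes, and 614 of these (6.30%) held the letters. Of the steadily lower genes 22 had a promoter and 7 held them (31.8%): Mmp3, Mmp10, Mmp13, Serpinb2, Havcr2, C3ar1 and A330040F15Rik. Of the steadily higher genes 37 had a promoter and 4 held them (10.8%): Il6, Hdac9, Mylk and Srpx2. The 3 metalloproteinases belong to 1 gene family and lie near each other on chromosome 9, so their matches may not be 3 separate cases. Fosl1, a Fos family subunit of AP-1, spanned 402 to 1084 normalized reads in replicate 1 (median 533) and 315 to 1001 normalized reads in replicate 2 (median 396) and differed by -0.35 ± 0.04. Fosb was lower too (-0.27 ± 0.09), but its call was lost in 8 of 24 alternative settings, edgeR and DESeq2 among them. Jund was higher at 9 of 9 hours (0.22 ± 0.05), and Fos (0.19), Fosl2 (0.03), Jun (-0.08) and Junb (-0.02) did not pass. A match of letters describes the sequence and shows no binding.

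Serpinb2, which encodes the inhibitor of urokinase PAI-2, was lower in replicate 2 at 9 of 9 hours, 56.4 to 1007 (median 372) against 44.5 to 763 (median 212) normalized reads, a difference of -0.67 ± 0.07. Havcr2 (TIM-3), better known from T cells, spanned 75.2 to 236 (median 151) in replicate 1 and 45.6 to 192 (median 93.6) in replicate 2 and differed by -0.70 ± 0.09. Cd209c, of the C-type lectin family, spanned 739 to 1156 (median 1093) and 492.9 to 765 (median 696). It differed by -0.64 ± 0.03 at 9 of 9 hours. Spo11, the enzyme of meiotic DNA breaks, was also lower, by -0.64 ± 0.07. The remaining lower genes picked by size were Acsbg1 (-0.60), Clca6 (-0.58), 4930519F09Rik (-0.55), Notch4 (-0.55), AI747448 (-0.53), Cd93 (-0.53) and Gja4 (-0.52).

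Some secreted signals and receptors were among the higher genes. Other secreted factors were lower, among them Inhba (-0.19) and Pgf (-0.64 ± 0.19), the last low in both series. Inhba and Pgf were named after their values were seen. Sfrp2, a secreted modulator of Wnt signalling, spanned 82.4 to 274 normalized reads in replicate 1 (median 185) and 158 to 431 normalized reads in replicate 2 (median 342), a difference of 0.79 ± 0.06 at 9 of 9 hours. Rspo2, which amplifies Wnt signals, spanned 5.81 to 38.5 normalized reads in replicate 1 (median 18.2) and 10.3 to 78.96 normalized reads in replicate 2 (median 54.9), a difference of 1.34 ± 0.15. Of 9 tested Wnt ligands, receptors and feedback genes 3 were higher (33.3%) and 2 lower (22.2%), against 20.0% and 17.9% of all tested genes. The lower ones were Lef1 (-0.31) and Wnt5a (-0.12). Wisp2, a matricellular protein of the CCN family, differed by 0.88 ± 0.05, Clec11a, an osteogenic growth factor, by 0.83 ± 0.07, and Scara5, a ferritin receptor, by 0.83 ± 0.10. The 4 further genes, chosen after their values were seen, were pleiotrophin (Ptn, 0.70 ± 0.03), the TIE2 ligand Angpt1 (0.57 ± 0.05), angiotensinogen (Agt, 0.98 ± 0.10) and the angiotensin receptor Agtr2. Agtr2 had the largest difference of the 48, 2.19 ± 0.25, but spanned only 0.910 to 5.59 normalized reads in replicate 1 (median 2.58) and 5.15 to 28.1 normalized reads in replicate 2 (median 20.1).

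C3, the central component of complement, spanned 75.2 to 219 normalized reads in replicate 1 (median 106) and 145 to 378 normalized reads in replicate 2 (median 229), was 1.98-fold higher at 9 of 9 hours and differed by 0.98 ± 0.08 (adjusted p = 3.76e-08). The other complement genes were looked up after C3 was seen. The serine protease C1s differed by 0.73 ± 0.05, C4b by 0.85 ± 0.09 and C1ra by 0.48 ± 0.05. C4b and C1ra have near-identical copies in the mouse genome, so their reads may be split or shared. Not passing were Masp1 (-0.06, adjusted p = 0.177), Cfb (0.01, 0.903) and Cd55 (-0.13, 0.108). C3ar1, a receptor for a C3 fragment, was lower at -0.87.

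CDK inhibitors and quiescence genes gave 12 higher and 1 lower of 18 tested (median 0.22), or 66.7% and 5.56%, against 20.0% and 17.9% of all tested genes. Gas1, a membrane protein induced on growth arrest, spanned 862 to 4176 normalized reads in replicate 1 (median 2554) and 1733 to 5665 normalized reads in replicate 2 (median 3323). It climbed over the hours in both series and was higher in replicate 2 at 9 of 9 (difference 0.52 ± 0.05; adjusted p = 1.49e-07). The antiproliferative Btg2 differed by 0.30 ± 0.03 and Btg1 by 0.22 ± 0.02, and the retinoblastoma gene Rb1 by 0.29 ± 0.03. Gas6, a ligand of the receptor Axl, differed by 1.15 ± 0.23 but from a mean of only 5.97 normalized reads. Cdkn1b (p27) was higher by 0.13 ± 0.04 at 7 of 9 hours. Of the other CDK inhibitors Cdkn2c was higher too, at 0.19. Cdkn1a, the one with the most reads, did not pass (-0.06, limma adjusted p = 0.119). Cdkn2d (0.25) did not pass either, and Cdkn2a and Cdkn2b averaged 0 in both series.

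Ribosome biogenesis genes, which make and assemble ribosomal RNA, gave none higher and 20 lower of 30 (66.7%, where 17.9% of all tested genes were lower), with a median of -0.094. Rrp12, a factor of ribosomal subunit maturation, spanned 3969.8 to 6014 normalized reads in replicate 1 (median 4716) and 3601 to 5473 normalized reads in replicate 2 (median 4018), and was lower at 9 of 9 hours by -0.20 ± 0.02. The rRNA methyltransferase Nop2 differed by -0.18 ± 0.02, Bop1 by -0.15 ± 0.02 and Nop56 by -0.13 ± 0.02. Aminoacyl-tRNA synthetases, which charge tRNAs, gave none higher and 13 lower of 20 (65%), with Vars at -0.17 and Cars at -0.15. Myc, a driver of both groups, spanned 4975 to 7559 normalized reads in replicate 1 (median 6207) and 4518 to 6378 normalized reads in replicate 2 (median 5513), with a difference of -0.18 ± 0.02. DNA replication genes gave 1 higher and 14 lower of 38 (36.8% lower, median -0.046), Cdt1 among the lower at -0.14. Mitosis genes gave 3 and 9 of 36 (25% lower, median -0.052), with Cdc20 at -0.12, and 2 and 20 after the GC and length adjustment.

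Cytosolic ribosomal protein mRNAs went the other way from the factors that assemble ribosomes: 53 of 75 were higher (70.7%, against 20.0% of all tested genes) and none lower. The differences were small, with a median of 0.089. Rpl21 spanned 12062 to 15322 normalized reads in replicate 1 (median 14645) and 13959 to 18144 normalized reads in replicate 2 (median 15858), a difference of 0.18 ± 0.02, and Rps3a differed by 0.16 ± 0.02, both at 9 of 9 hours. Ribosomal protein genes have many near-identical pseudogenes, so single members are uncertain. After the GC and length adjustment 43 were higher and none lower. Mitochondrial ribosomal proteins gave 16 higher and 1 lower of 76. Their 21.1% higher lies near the 20.0% of all tested genes, and the split became 8 and 5 after the adjustment. Respiratory chain subunits gave 20 and 7 of 74, which turned to 10 and 16.

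**Figure D2:**
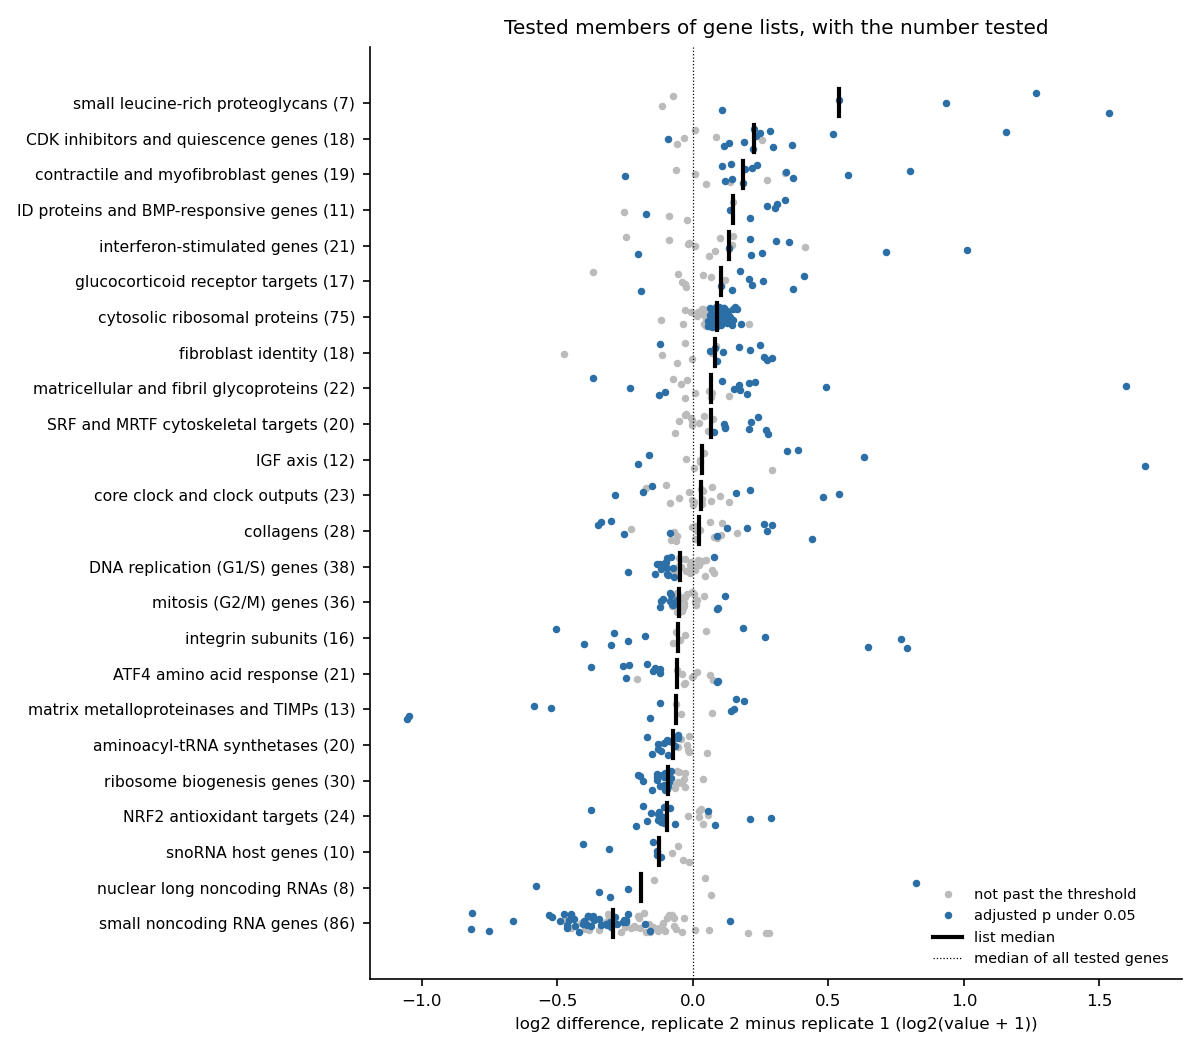
Log2 difference between the series (horizontal axis) for each tested member of 24 gene lists, 1 point per gene, blue where the adjusted p was under 0.05 and grey otherwise, with the list median as a black bar. Small leucine-rich proteoglycans have the highest median among the 24, 0.54, and small noncoding RNA genes the lowest, -0.29, and most points of the other lists lie near the dotted median of all tested genes.

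Stress lists differed. NRF2 antioxidant targets gave 4 higher and 14 lower of 24 (median -0.095). The cystine transporter Slc7a11 spanned 589.5 to 1551 normalized reads in replicate 1 (median 736) and 426 to 1230.5 normalized reads in replicate 2 (median 499.6), a difference of -0.38 ± 0.05, and the exporter Abcc1 differed by -0.21 ± 0.02. The glutathione transferases Gstm1 (0.21 ± 0.03) and Gstm2 (0.29 ± 0.03) of the same list were higher. The ATF4 amino acid response gave 2 higher and 9 lower of 21, with the amino acid transporter Slc7a5 at -0.26 and the cystathionine lyase Cth at -0.25. Slc7a11 is in both lists. The lower shares were 58.3% and 42.9%, against 17.9% of all tested genes. Nearer to it were p53 targets with 4 higher and 5 lower of 18, cytosolic heat shock proteins with 2 and 4 of 17, ER chaperones with 2 and 5 of 23, and metallothioneins with 1 and 1 of 5.

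Signalling lists were mixed. Glucocorticoid receptor targets gave 8 higher and 1 lower of 17 (median 0.10). Those shares were 47.1% and 5.88%, against 20.0% and 17.9% of all tested genes. Pdk4, a brake on glucose oxidation, spanned 955 to 2400.5 normalized reads in replicate 1 (median 1777) and 1057 to 3387 normalized reads in replicate 2 (median 2249.7), a difference of 0.41 ± 0.04, and the transcription factor Cebpd differed by 0.37 ± 0.03. Interferon-stimulated genes gave 8 higher and 1 lower of 21 (38.1% and 4.76%). Ifi44 differed by 1.01 ± 0.19 at 8 of 9 hours, but no member was higher at all 9 hours. BMP-responsive genes and ID proteins gave 6 higher and 1 lower of 11 (54.5% and 9.09%), with Id3, an inhibitor of helix-loop-helix factors, at 0.27 ± 0.04. Cytokine genes moved both ways: Il6 was higher by 0.62 ± 0.08 and the chemokine Ccl7 by 0.41 ± 0.05. The related cytokine Lif was lower by -0.49 ± 0.04 and Ptgs2, the inducible cyclooxygenase, by -0.40 ± 0.02, each at 9 of 9 hours.

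Many noncoding genes were lower in replicate 2, fewer after the adjustment for GC content and length. Of 707 small noncoding RNA genes in the table, 86 were tested, 1 was higher, 40 were lower and 45 did not pass, with a median of -0.29. The lower share was 46.5%, against 17.9% of all tested genes. The 1 higher gene was Snord123. After the adjustment 3 were higher and 10 lower, which is under the share of all tested genes. These genes had a median length of 90 bases, against 3395 over all tested genes. The fitted length trend can therefore take up their own offset. Whether length or GC content accounts for the lost calls was not tested. Snord16a, a small nucleolar RNA that lies in an intron of a ribosomal protein gene, spanned 199 to 381 normalized reads in replicate 1 (median 295) and 176 to 270.5 normalized reads in replicate 2 (median 209), a difference of -0.40 ± 0.05. Snord83b differed by -0.53 ± 0.08 and the precursor gene Mir17hg by -0.42 ± 0.05, the last with no overlap between series. Such genes lie within other transcripts, and the counting strand is not given in the sources used here, so their reads may belong to the host. Of the host genes of small nucleolar RNAs, none was higher and 6 of 10 were lower (60%), with Snhg7 at -0.40 ± 0.05 and Snhg3 at -0.31 ± 0.03. The paraspeckle RNA Neat1 averaged 45356 ± 8834 and 30502 ± 6791 normalized reads (SD, n = 9 hours) and was lower by -0.58 ± 0.04 at 9 of 9 hours. Malat1, of nuclear speckles, was lower by -0.24 ± 0.03, and Kcnq1ot1, the RNA of an imprinted domain, by -0.35 ± 0.03.

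The calls also varied with the GC content of the transcript. Of the tested genes 98.9% had a length and GC value from an annotation of a later genome build. In the quintile of genes with the lowest GC content, 26.2% were higher in replicate 2 and 10.4% lower, and in the quintile with the highest, 11.8% and 28.7%. The median difference went from 0.032 to -0.047 between those quintiles. By length the shares changed less, from 21.7% higher and 12.6% lower in the shortest quintile to 18.9% and 21.5% in the longest. Removing the trend with GC and length, an alternative chosen after seeing the data, gave 4626 called genes (3952 shared) and 83 steady ones of at least 1.5-fold (75 shared with the 80). Under it the small noncoding RNA genes had a median of -0.10.

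**Figure D3:**
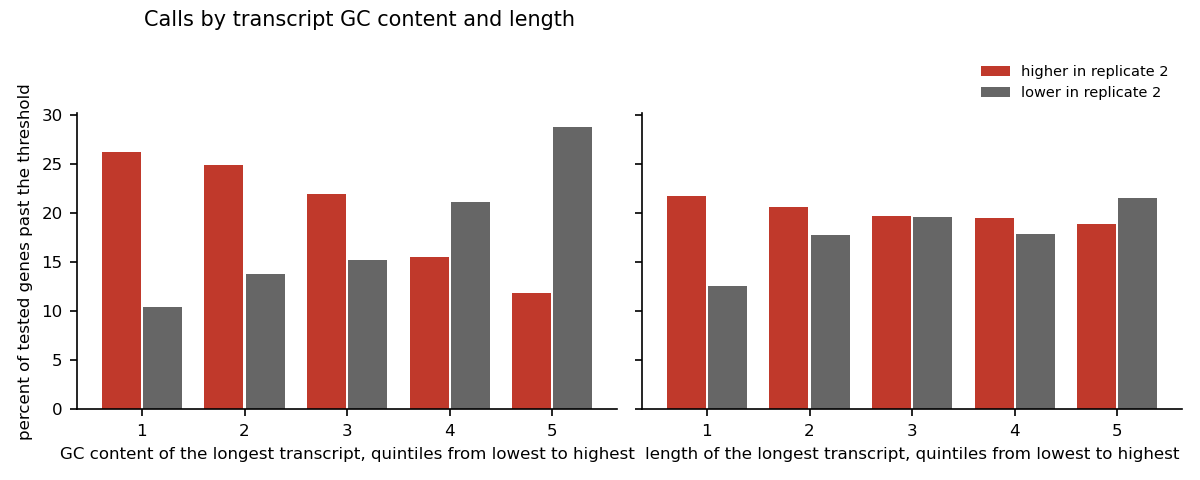
Percent of tested genes past the threshold (vertical axes from 0) in quintiles of transcript GC content (left) and length (right), red for genes higher in replicate 2 and grey for genes lower. From the lowest to the highest GC quintile the red bars go down from 26.2% to 11.8% and the grey bars up from 10.4% to 28.7%.

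Both series had reads for most listed fibroblast identity genes, and 18 of 20 were tested. Of these 10 were higher in replicate 2 (55.6%) and 1 lower (5.56%), with a median of 0.083. Of all tested genes 20.0% were higher and 17.9% lower. The mesenchymal filament Vim averaged 107536 and 105316 normalized reads, and fibronectin (Fn1) 295090.0 and 307683. Other members were low: Lum averaged 2.52 and 4.00 normalized reads, Fap 17.9 and 12.4, and Dcn 210 and 196. Twist2 was the 1 lower member (-0.12), and Fap (-0.48) and Dcn (-0.11) did not pass. Tcf21 was at 0 in all 18 libraries. Summed over 13 leukocyte markers in the table the libraries of replicate 1 held 355 to 429 normalized reads and those of replicate 2 313 to 373, nearly all from Cd68 and Csf1r, with Tyrobp, Cd3e and Ms4a1 at 0. That sum was lower in replicate 2 at 9 of 9 hours (means 396 and 337). Of the 3 leukocyte markers tested only Cd68 passed, at -0.31. The sums over 13 endothelial markers were 369.9 to 691 and 357 to 729, with Kdr at 0, and Cdh5 alone of 5 tested passed (-0.64). None of the 5 had a difference above 0, and their median was -0.25. The sums over 14 epithelial markers were 318 to 1443 and 305 to 1211, with Esrp1 at 0, and Krt8 alone of 4 passed (-0.21). Of adipocyte markers Lpl was higher (0.43 ± 0.06) and Pnpla2 lower (-0.11) of 5 tested, with Lep at 0. The sums over 13 neural markers were 537 to 923 and 521 to 803, lower in replicate 2 at 8 of 9 hours, with Olig2 and Elavl4 at 0, and Tubb3 (-0.17) and Snap25 (-0.38) passed of 4 tested. The Snap25 call was lost in 13 of 23 alternative settings. The part of other cells in the gene differences was not tested beyond these sums.

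Clock genes had fitted peaks at like hours in both series. Of 23 tested clock genes 4 were higher in replicate 2 and 3 lower, by small amounts apart from Hlf and Dbp. Those shares were 17.4% and 13.0%, against 20.0% and 17.9% of all tested genes. Hlf, a PAR bZIP factor, spanned 408 to 1368 normalized reads in replicate 1 (median 825) and 636 to 1820.2 normalized reads in replicate 2 (median 1109.6), a difference of 0.54 ± 0.04 at 9 of 9 hours. Dbp differed by 0.48 ± 0.17 at 6 of 9 hours and was low, at 3.73 to 55.04 (median 17.9) and 3.16 to 97.9 (median 29.3) normalized reads. Its call was lost in 11 of 23 alternatives, thinning among them (adjusted p from 0.00243 to 0.740 over the alternatives). Per2, a repressor of the clock, was higher by 0.21 ± 0.07, a call lost without the 0 h or the 32 h pair, and the repressor Nr1d1 was lower by -0.18 ± 0.05. A cosine with a 24 h period, fitted to each series without a test, peaked for Per2 at 2.19 h in replicate 1 and 2.43 h in replicate 2, and for Nr1d2 at 22.2 h and 22.3 h. The peak-to-trough folds were 10.9 and 14.4 for Per2, 4.66 and 6.67 for Per3, 3.97 and 5.77 for Cry1, and 2.88 and 3.87 for Nr1d1. The larger fold was that of replicate 2 for these 4 genes, but no gene passed the test of a 24 h component in the paired differences (limma, adjusted p of 0.976 for Per2 and Nr1d1, 583 genes at an unadjusted p under 0.05, and none with edgeR).

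**Figure D4:**
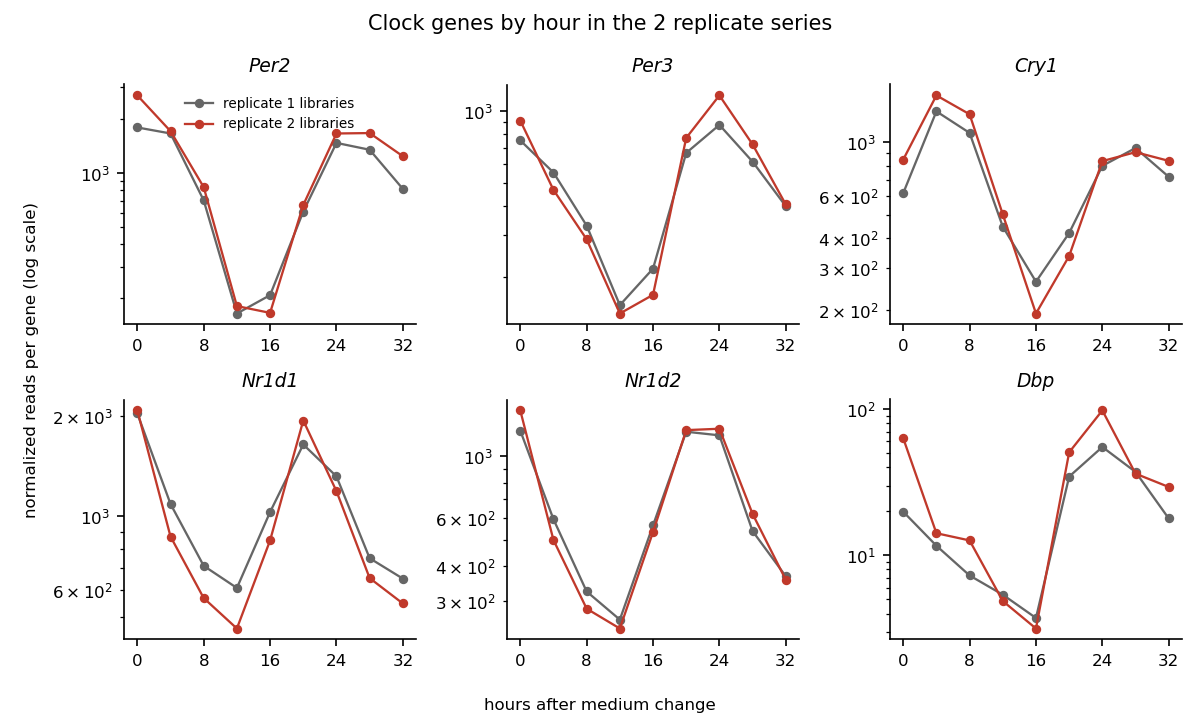
Normalized reads on a log scale against hours after the medium change for 6 clock genes, 1 point per library, grey for replicate 1 and red for replicate 2. The turning points of the lines fall at like hours in both series, as for Per2 with fitted peaks at 2.19 h and 2.43 h.

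No gene passed the test of a drift with hour (limma; 1115 at an unadjusted p under 0.05; 6 with edgeR and 19 with DESeq2 on the recovered reads). The spread of the same-hour difference over genes narrowed from an SD of 0.287 at 0 h to 0.230 at 32 h, and 650 genes differed by at least 1.5-fold at 0 h against 403 at 32 h. Fitted on 0 h to 12 h alone, 3950 genes were called, and on 20 h to 32 h alone 1681. They shared 1158 in the same direction, 29.3% of the early and 68.9% of the late calls, and 64 of the 80 steady genes were called in both. The 80 were chosen on these same hours for size and 1 sign at all 9. Their calls in both parts were thus favoured in advance and are no independent support. Immediate early genes, the first to answer a new medium, had a list median of 0.26 at 0 h and between -0.083 and 0.060 at the other hours. Over all hours they gave 3 higher and 5 lower of 23 (13.0% and 21.7%, against 20.0% and 17.9% of all tested genes). The small noncoding RNA genes had medians of -0.47 to -0.19 from 0 h to 24 h and of -0.072 and -0.048 at 28 h and 32 h. The proteoglycan median stayed above 0 at all 9 hours, from 0.11 at 32 h to 0.77 at 8 h.

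**Figure D5:**
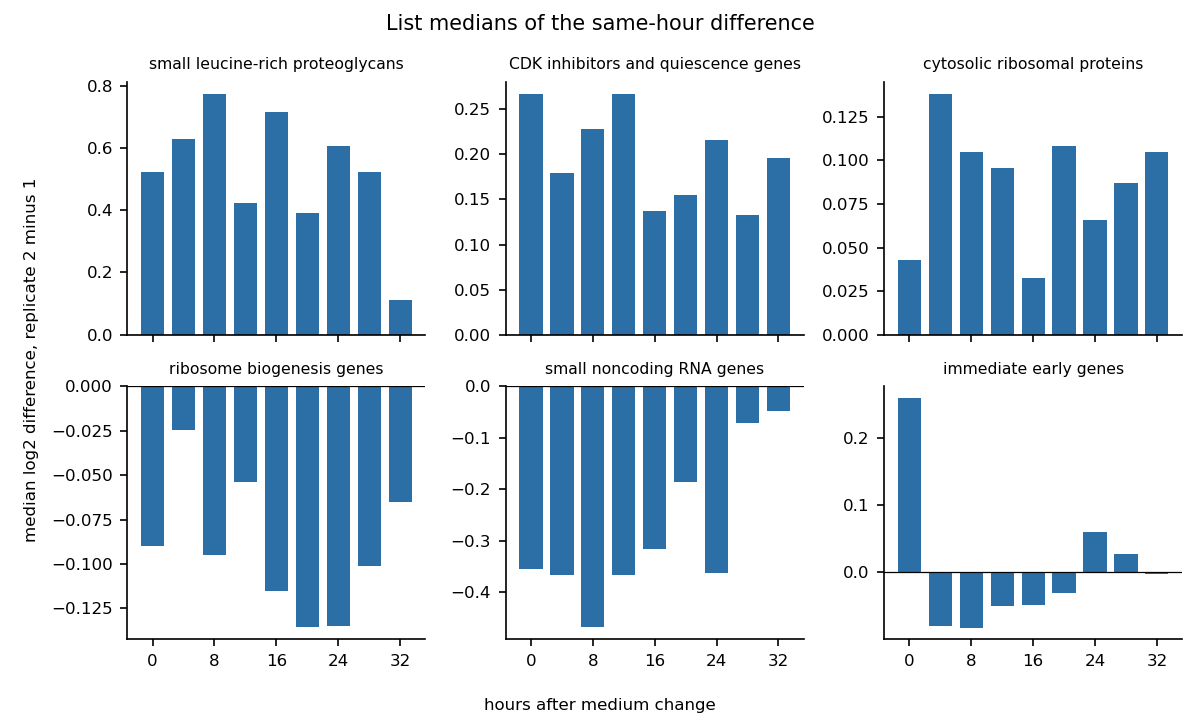
Median log2 difference between the series (vertical axes, each with its own scale) at each hour after the medium change for 6 gene lists, 1 bar per hour. The proteoglycan, quiescence and ribosomal protein lists are above 0 and the ribosome biogenesis and small noncoding lists below 0 at all 9 hours, while the immediate early genes stand at 0.26 at 0 h.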

How the data were processed

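The authors deposited 1 table of signal values, 21937 genes by 18 libraries, rounded to 2 decimals. Per the submitters' processing notes TopHat, HTSeq, DESeq and the build mm9 were used; versions and roles are not given in the sources used here. A column divided by its smallest step gave whole reads for 100% of values (within 0.02 reads, largest distance 0.00611), and the factors matched DESeq size factors within 2.71e-05%. Totals were 25.4 to 38.9 M reads.

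Genes with a mean over 18 libraries of at least 10 were fitted with limma 3.58.1 in R 4.3.3 on log2(value + 1) with a variance trend, the hour as a factor and the replicate number as the term tested, Benjamini-Hochberg threshold 0.05 over all 12393. Drift and a 24 h cosine were tested on the 9 same-hour differences. Series were taken from the replicate number in the column names and pairs from the harvest hour. The difference between same-hour libraries correlated at 0.230 to 0.502 across the 36 pairs of hours. The labels alone do not state that libraries of 1 replicate number form 1 series. edgeR 4.0.16 and DESeq2 1.42.0 were run on the recovered counts as alternatives. The scripts were tested on simulated data. Length and GC content came from GENCODE, promoters from RefSeq (GRCm38.p6); no coordinates of mm9 are used.

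Named were the 12 highest and 12 lowest differences with 1 sign at all hours and a mean of at least 100, up to 4 tested members of each list by p, the clock genes, and genes stated to be chosen after their values were seen; further genes are named with their value to fill out a list. No gene had a mean of at least 10 in 1 series and under 1 in the other. The comparison, the 54 lists and the alternatives were chosen with earlier results of these data known. Some members of the lists are not reported here by name.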

Additional observations from a re-analysis of the deposited data

Results flagged for a closer look

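Of 76 sets of 9 values examined for a single value far from the others, 9 stood out, where chance gives about 5%. The 0 h library of replicate 1 had 38.9 M reads, against a median of 34.7 M in its series. The log2 difference of Aspn was 0.87 at 12 h against a median of 1.59 over the hours. That of Havcr2 was -1.53 at 24 h against -0.62. That of Cd209c was -0.83 at 8 h against -0.64, and that of Clca6 was -0.22 at 0 h against -0.65. Among the list medians, immediate early genes stood at 0.26 at 0 h against a median of -0.030, and p53 targets at 0.089 at 24 h against -0.020. The ATF4 amino acid response stood at -0.24 at 4 h against -0.045, and chondrocyte and osteoblast markers, with 6 tested members, at 0.20 at 28 h against -0.087.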

How the results depend on the processing

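With 1 pair of libraries left out in turn, 3973 to 4938 genes were called, 82 to 92 were steady at 1.5-fold or more, 0 to 1 drifted with hour (1 without the 28 h pair) and none had a 24 h component. Without pairing by hour 421 genes were called and 41 were steady, since the hours then enter the spread. With a mean of at least 50 the steady genes were 45, all 45 shared with the 80, as fewer genes were tested. On 0 h to 12 h alone 167 were steady, and on 20 h to 32 h alone 1681 were called, both with fewer samples. Drift was called in 6 genes with edgeR and 19 with DESeq2, and a 24 h component in 3 with DESeq2; the cause was not tested. Called genes were 52.7% higher ones as deposited, 46.1% with equal totals and 48.6% after quantile normalization. Differences among the 9 hours, tested without a replicate term, were called in 6439 genes and in 8965 with the replicate block, and in 5515 to 6441 with 1 library left out. For the called genes among those named, no difference reversed under any of 24 alternatives, and 5548 of 5940 values stayed past the threshold. Low depth limits genes such as Agtr2, where single reads count.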

Other observations

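Among genes outside the lists, several of low level had large steady differences: Megf6 averaged 9.24 ± 6.64 and 30.8 ± 16.6 normalized reads (SD, n = 9 hours), Aspg 7.77 ± 6.59 and 24.1 ± 10.9, and the cytochrome P450 gene Cyp2f2 6.91 ± 4.09 and 25.4 ± 17.4. The opposite held for Plekha6, 61.9 ± 7.24 and 31.1 ± 5.31, whose series did not overlap. Igf2 and Rian are imprinted genes and were both higher in replicate 2, Rian by 0.82 ± 0.22 at 6 of 9 hours, while the imprinted noncoding RNAs Kcnq1ot1 (-0.35) and Airn (-0.31) were lower. These genes were picked after their values were seen.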
